A study of Mus musculus with 6 samples.

Results

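The 43 genes described here encode proteins that build the synapse. Of these, 18 are scaffold and adaptor proteins of the postsynaptic side and 25 are presynaptic proteins of the active zone and of vesicle release. They were chosen by name, with earlier results of these data known. All 43 were found among the 22380 protein-coding genes of the GENCODE vM1 annotation. A cluster was counted for a gene when it overlapped the annotated span by at least 1 nt on the strand of the gene. By this rule the genes held 245 of the 9988 NOVA1 clusters and 1152 of the 36591 NOVA2 clusters.

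The clusters came from HITS-CLIP, in which ultraviolet light crosslinks a protein to RNA and the bound fragments are recovered with an antibody and sequenced. It was carried out for NOVA1 and for NOVA2 on whole cortex of wild-type CD1 mice at embryonic day 18.5, with 3 libraries for each protein. Both groups were untreated and shared strain, tissue and age, so they differed in the protein that was recovered. Each list pools its 3 libraries into a single tag count per cluster, with a minimum of 10 tags, so there is no value for a single library, replicate error is unknown and no test was possible. Intervals are 95% intervals (Wilson for shares, order statistics for medians) and cover counting error only, and clusters of the same gene are not independent. RNA levels were not measured in these lists, and in whole cortex fewer cells that express a gene and less RNA per cell cannot be told apart.

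NOVA1 and NOVA2 are closely related RNA-binding proteins of neurons that recognise YCAY, where Y is C or U. Bound in introns near alternative exons, they change whether an exon is kept. As a rule, binding upstream of an exon favours skipping and binding downstream favours inclusion, and NOVA proteins also bind 3' untranslated regions (3' UTRs). Transcripts of synaptic proteins are among their best known targets. On the postsynaptic side, MAGUK proteins (Dlg) anchor glutamate receptors, and SAPAP (Dlgap), Shank and Homer proteins link them to the layers beneath. On the presynaptic side, RIM (Rims), bassoon (Bsn), piccolo (Pclo), ELKS (Erc) and liprin-alpha (Ppfia) organise the active zone, where vesicles fuse through SNARE proteins such as SNAP-25.

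Both proteins had clusters in most of these genes. At least 1 NOVA2 cluster was present in 40 of 43 genes (93.0%, 81.4 to 97.6), and at least 1 NOVA1 cluster in 33 of 43 (76.7%, 62.3 to 86.8). Over all protein-coding genes the shares were 22.7% for NOVA2 and 12.7% for NOVA1. Since the 43 genes were chosen with earlier results known, their shares do not describe genes picked without sight of the data. Long genes more often held a cluster, and 28 of the 43 genes spanned 100 kb or more. Of these 28, NOVA2 had clusters in 27 (96.4%, 82.3 to 99.4) and NOVA1 in 22 (78.6%, 60.5 to 89.8), beside 66.6% and 40.9% of all protein-coding genes of that length. All 33 genes with NOVA1 clusters also held NOVA2 clusters. NOVA2 alone had clusters in 7 genes, namely the scaffold genes Dlg1, Dlgap4 and Magi3, the liprin-alpha gene Ppfia1, the priming factor gene Unc13a, Stxbp5, which encodes tomosyn, an inhibitor of SNARE assembly, and Nsf, which encodes the ATPase that takes SNARE complexes apart. Over all 22380 protein-coding genes 5076 held a NOVA2 cluster and 2853 a NOVA1 cluster, so NOVA2 clusters alone were common outside these genes too. How many of the 2853 also held a NOVA2 cluster was not counted. Whether the full overlap in the 33 genes is particular to this set was therefore not tested. No cluster of either protein was found in Ppfia3, Cadps2 or Stx1a. Cadps2 stood out among these, since it spans 577 kb.

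**Figure D1:**
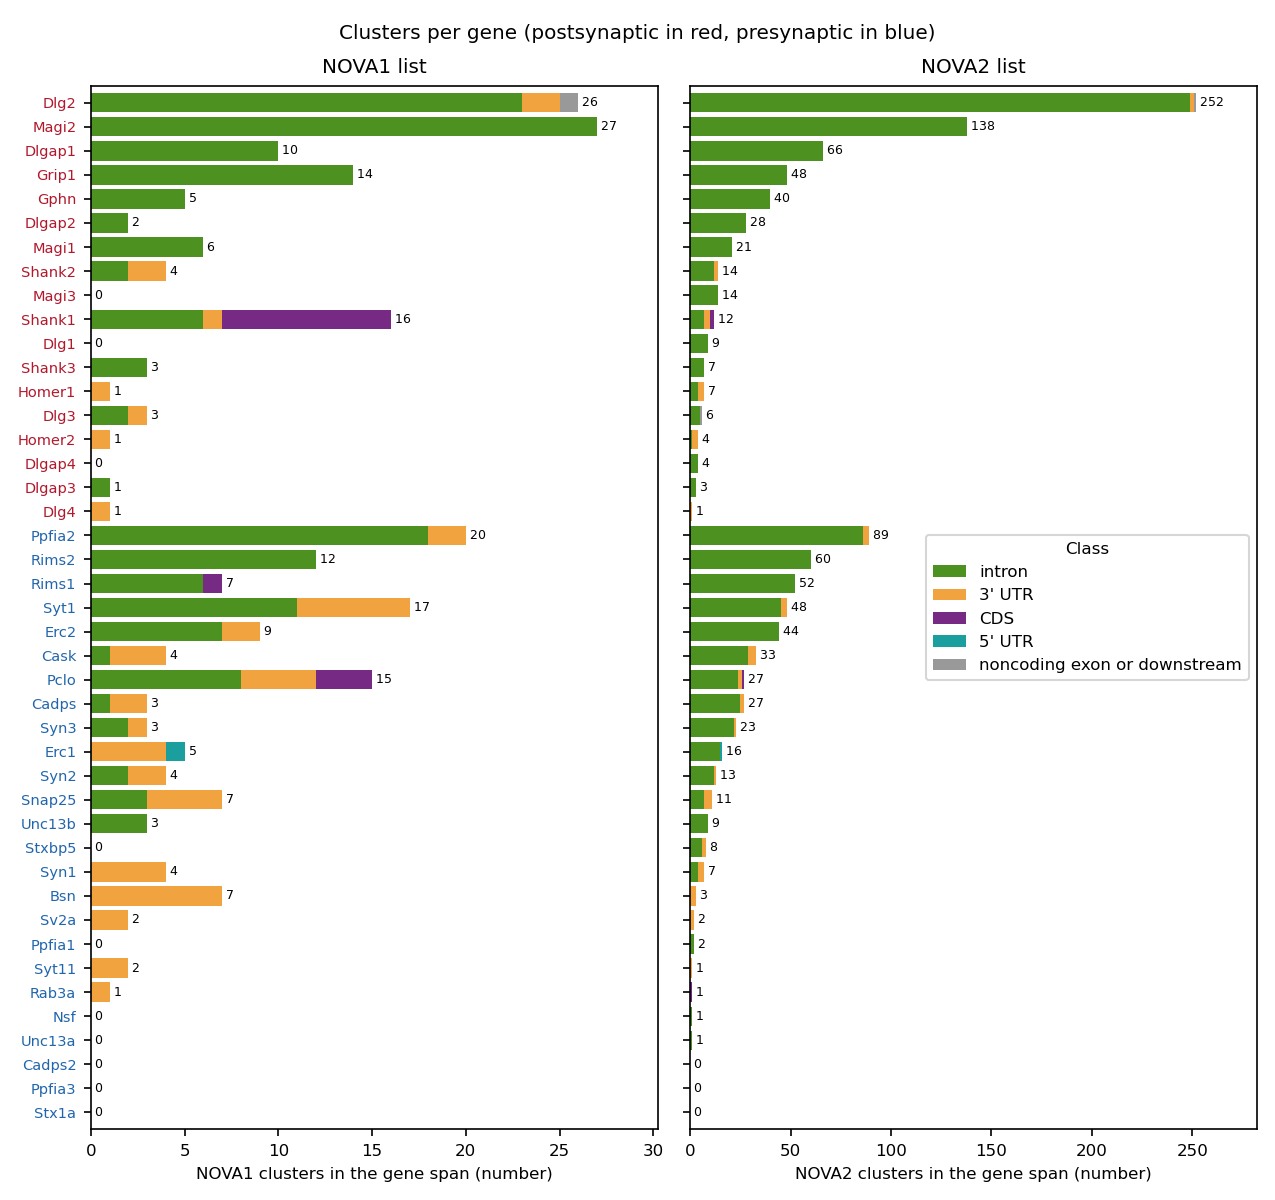
Number of NOVA1 clusters (left) and NOVA2 clusters (right) in each of the 43 genes, with a different number axis for each list, coloured by the annotation class that covers most of each cluster. Dlg2, with 26 NOVA1 and 252 NOVA2 clusters, and Magi2, with 27 and 138, are the longest bars, and Shank1 is the gene with most of the NOVA1 clusters in coding sequence (CDS).

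The postsynaptic genes held 120 NOVA1 and 674 NOVA2 clusters and the presynaptic genes 125 and 478. There were thus 5.62 NOVA2 clusters for each NOVA1 cluster on the postsynaptic side and 3.82 on the presynaptic side, beside 3.66 over the whole lists. Without Dlg2 and Magi2 the postsynaptic genes held 67 NOVA1 and 284 NOVA2 clusters. Dlg2, which encodes the MAGUK protein PSD-93, held 252 NOVA2 clusters with 8477 tags and 26 NOVA1 clusters with 574 tags over 1945 kb. Magi2, a scaffold of the inverted MAGUK family, held 138 NOVA2 and 27 NOVA1 clusters over 1479 kb. Together Dlg2 and Magi2 made up 57.9% of the NOVA2 and 44.2% of the NOVA1 clusters of the postsynaptic genes. The next were Dlgap1 (66 NOVA2 and 10 NOVA1 clusters), Grip1, which encodes an AMPA receptor adaptor (48 and 14), and Gphn, which encodes gephyrin, the scaffold of inhibitory synapses (40 and 5).

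Among the presynaptic genes Ppfia2 came first, with 89 NOVA2 and 20 NOVA1 clusters. Rims2 held 60 NOVA2 and 12 NOVA1 clusters and Rims1 held 52 and 7. Syt1, which encodes the calcium sensor of fast release, held 48 NOVA2 and 17 NOVA1 clusters. Erc2 held 44 and 9. The remaining presynaptic genes with NOVA2 clusters held between 1 (Unc13a, Nsf, Syt11 and Rab3a) and 33 (Cask). More NOVA1 than NOVA2 clusters were listed in 3 genes, namely Shank1 (16 against 12), Bsn (7 against 3) and Syt11 (2 against 1).

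The number of clusters went with gene length. Across the 43 genes Spearman's rho between span and number of clusters was 0.82 for NOVA2 and 0.54 for NOVA1. This is a description across genes, which are not replicates. Per 100 kb of intron the postsynaptic genes held 8.15 NOVA2 intron clusters and the presynaptic genes 6.99, and for NOVA1 the values were 1.25 and 1.16. Of the 28 genes of 100 kb or more, Ppfia2 had the highest density for both proteins, with 18.7 NOVA2 and 3.91 NOVA1 intron clusters per 100 kb of intron. Dlg2 had 12.8 and 1.19. The median of these long genes was 5.61 for NOVA2 and 0.65 for NOVA1.

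**Figure D2:**
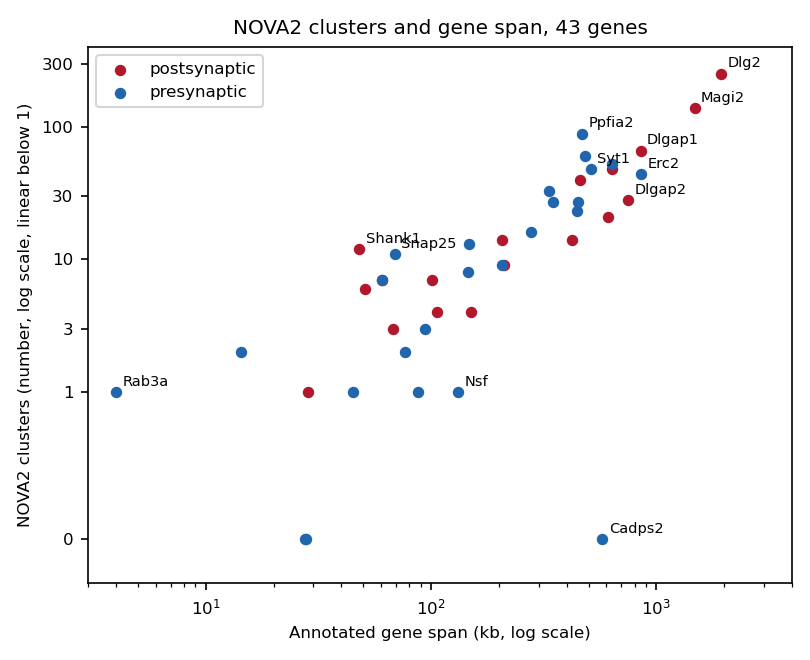
NOVA2 clusters (vertical axis, log scale and linear below 1) against annotated gene span in kb (log scale) for the 43 genes, 1 point per gene, with some genes named. Clusters rise with span on both sides of the synapse, and Cadps2, at 577 kb, lies at 0.

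Most clusters of these genes lay in introns. For NOVA2, 1100 of 1152 clusters were intronic (95.5%, 94.1 to 96.5), beside 74.6% of the whole list. For NOVA1, 175 of 245 were intronic (71.4%, 65.5 to 76.7), beside 40.3% of the whole list. Exons held 69 NOVA1 clusters (28.2%, 22.9 to 34.1), beside 48.1% of the whole list, and 51 NOVA2 clusters (4.43%, 3.38 to 5.77), beside 14.3%. The NOVA1 exon clusters comprised 55 in 3' UTRs, 13 in CDS and 1 in a 5' UTR. For NOVA2 there were 45 in 3' UTRs, 4 in CDS, 1 in a 5' UTR and 1 in a noncoding exon. The last cluster of each list overlapped the 3' end of Dlg2 and lay mostly downstream of it, with 92 NOVA1 tags and 94 NOVA2 tags.

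A larger share of NOVA1 clusters was intronic in the postsynaptic than in the presynaptic genes. On the postsynaptic side 101 of 120 NOVA1 clusters were intronic (84.2%, 76.6 to 89.6), and on the presynaptic side 74 of 125 (59.2%, 50.4 to 67.4). Among genes of 100 kb or more, the shares were 92.7% (85.7 to 96.4) of 96 clusters and 69.6% (60.1 to 77.7) of 102 clusters. Without Dlg2 and Magi2, a choice made after seeing the data, the postsynaptic share was 76.1% (64.7 to 84.7). Its interval then met that of the unchanged presynaptic genes. With the gene of most NOVA1 clusters left out on each side (Magi2 and Ppfia2), the shares were 79.6% (70.3 to 86.5) and 53.3% (43.8 to 62.6). NOVA2 clusters were mostly intronic on both sides, at 97.3% (95.8 to 98.3) and 92.9% (90.2 to 94.9). In 3' UTRs lay 46 of the 125 presynaptic NOVA1 clusters (36.8%, 28.9 to 45.5) and 9 of the 120 postsynaptic ones (7.5%, 4.0 to 13.6), beside 37.7% of the whole list, so that in this class the postsynaptic genes departed from the list and the presynaptic genes did not. In genes with at least 3 NOVA1 clusters the median share in introns was 100% over 10 postsynaptic genes and 53.3% over 15 presynaptic genes, and the genes overlapped widely (37.5 to 100% and 0 to 100%). Per length of sequence the sides differed in exons more than in introns. Postsynaptic genes held 1.37 and presynaptic genes 2.96 NOVA1 exon clusters per 10 kb of exon, beside 1.25 and 1.16 intron clusters per 100 kb of intron.

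**Figure D3:**
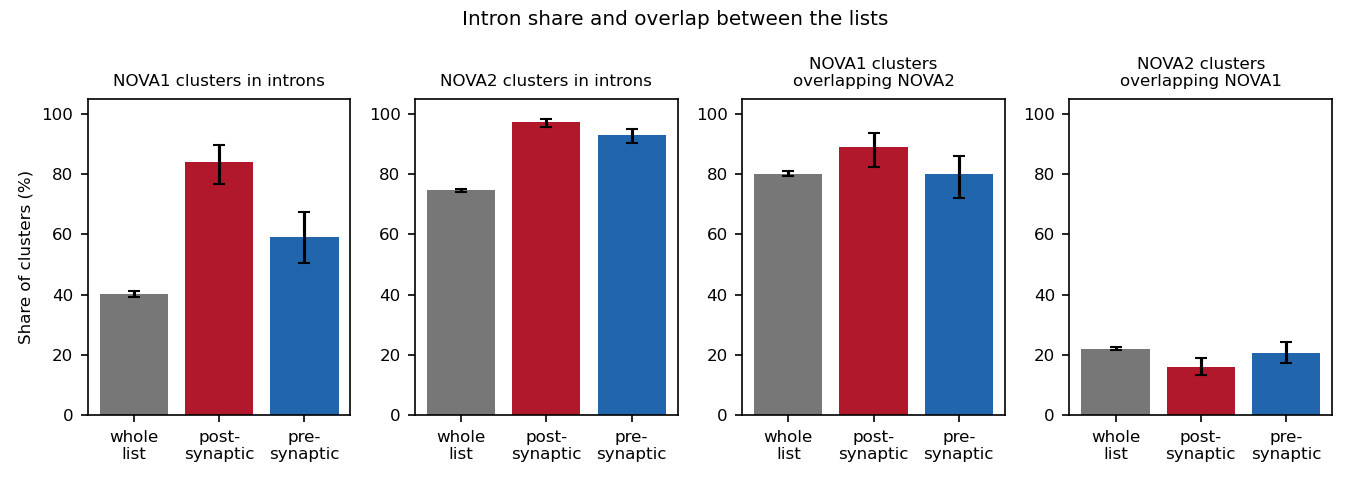
Share of clusters in introns and share of clusters that overlapped the other list, in percent, for the whole list, the 18 postsynaptic genes and the 25 presynaptic genes. Bars are shares and lines are 95% Wilson intervals. NOVA1 clusters are intronic at 40.3% in the whole list, 84.2% in postsynaptic and 59.2% in presynaptic genes.

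By family, the SAPAP genes held 13 NOVA1 and 101 NOVA2 clusters, the inverted MAGUK genes 33 and 173, Gphn 5 and 40 and Grip1 14 and 48, all of them in introns. Of the NOVA1 clusters of the MAGUK genes 83.3% (66.4 to 92.7) were intronic, and of those of the Shank genes 47.8% (29.2 to 67.0). The Homer genes, whose products link SHANK proteins to receptors, were unlike these. Their 2 NOVA1 clusters, of 10 tags each, and 6 of their 11 NOVA2 clusters lay in 3' UTRs. In Homer1 the 3' UTR clusters of NOVA2 had 12, 18 and 12 tags, and that at chr13:94129000-94129116 (mm9, plus strand) lay in the 3' UTR of a short transcript that ends within the span of the longer ones. In the presynaptic families the intron share of NOVA1 clusters was 65.8% (54.8 to 75.3) for the active zone scaffolds, 66.7% (4 of 6) for the priming genes, 42.9% (3 of 7) for the SNARE and fusion genes and 45.5% (29.8 to 62.0) for the vesicle proteins. The intervals of these families overlapped.

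The strongest exon clusters of the postsynaptic genes lay in Shank1, whose product is a scaffold that joins SAPAP to Homer and actin. Shank1 held 9 of the 13 NOVA1 CDS clusters of all 43 genes, with 595 of its 852 NOVA1 tags (69.8%). Its 2 NOVA2 CDS clusters had 567 and 119 tags, and the NOVA1 clusters at the same positions had 243 and 103. Both proteins had a cluster at chr7:51606934-51607344 (NOVA1, 27 YCAY) and chr7:51606936-51607381 (NOVA2, 28 YCAY), on the plus strand of mm9. The strongest NOVA2 cluster of Shank1, with 631 tags and 56 YCAY, lay in an intron at chr7:51576934-51577653 and overlapped 3 NOVA1 clusters, of which the highest had 60 tags. The 100-nt stretch with the most YCAY is shown for each, the first at chr7:51607223-51607322 and the second at chr7:51577077-51577176. They are shown because they carry the highest tag counts of this gene, and YCAY is in capitals. Sequences here and below are the mm9 genome on the strand of the gene, 5′ to 3′, with T for U.
Shank1 CDS: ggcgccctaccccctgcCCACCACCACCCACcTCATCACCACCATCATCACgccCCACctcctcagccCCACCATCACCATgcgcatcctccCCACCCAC
Shank1 intron: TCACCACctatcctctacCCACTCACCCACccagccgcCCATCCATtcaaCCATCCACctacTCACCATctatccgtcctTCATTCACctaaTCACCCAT
The CDS stretch holds 17 YCAY and the intron stretch 15, in both cases in long runs that follow each other directly. A further NOVA1 cluster of Shank1, with 141 tags, stretched over 1168 nt at chr7:51612119-51613286, where NOVA2 had a cluster of 10 tags in the 3' UTR. At a log2 ratio of 3.82 this was the highest ratio of NOVA1 to NOVA2 tags among all pairs of the 43 genes. The NOVA2 cluster, at chr7:51612743-51612871, covers only a small part of the NOVA1 cluster, so the ratio does not compare the same stretch. The NOVA1 cluster also reaches into the 3' UTR, although all its 141 tags are among the 595 counted as CDS. The other 6 NOVA1 CDS clusters had 11 to 25 tags and no NOVA2 cluster.

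Outside Shank1 the strongest NOVA2 cluster of the postsynaptic genes lay in an intron of Dlg2, with 564 tags at chr7:98447830-98447927 (plus strand). It overlapped a NOVA1 cluster of 29 tags. The highest postsynaptic NOVA2 clusters without a NOVA1 partner had 143 tags, in Magi2 at chr5:19419192-19419336, and 125 tags, in Dlg2 at chr7:98553260-98553352, both on the plus strand. They are shown together because they are the strongest such clusters on this side with and without NOVA1.
Dlg2, 564 NOVA2 tags: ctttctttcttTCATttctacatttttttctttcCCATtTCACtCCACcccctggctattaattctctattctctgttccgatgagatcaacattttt
Magi2, 143 NOVA2 tags: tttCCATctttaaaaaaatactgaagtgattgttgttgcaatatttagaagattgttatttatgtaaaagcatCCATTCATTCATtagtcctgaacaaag
Dlg2, 125 NOVA2 tags: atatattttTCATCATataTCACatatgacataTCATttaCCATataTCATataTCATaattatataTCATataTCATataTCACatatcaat
The Dlg2 cluster of 564 tags holds 4 YCAY within a stretch rich in pyrimidines. The Magi2 cluster also holds 4. The Dlg2 cluster of 125 tags holds 10 in an AT-rich repeat that has 35 further places in the genome at 90% identity or more (the part of this in its tag count was not tested).

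The highest NOVA1 cluster of the postsynaptic genes by tags, with 391, lay in an intron of Gphn at chr12:79451911-79452161 (plus strand). NOVA2 had no cluster there, and the nearest NOVA2 cluster of the gene was 7986 nt away. It had 3 YCAY in 251 nt and 3 further places in the genome at 90% identity or more (the part of this in its tag count was not tested). It made up most of the 541 NOVA1 tags of Gphn, which without it were 150. The ratio of NOVA2 to NOVA1 tags in Gphn was 2.26 with this cluster and 8.14 without it, and over the postsynaptic genes it was 7.41 and 8.38. The other 4 NOVA1 clusters of Gphn, with 78, 39, 20 and 13 tags, overlapped NOVA2 clusters. The highest of them met the strongest NOVA2 cluster of the gene, with 376 tags.

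On the presynaptic side the strongest NOVA2 clusters lay in introns of Ppfia2 and Rims2 and in the 3' UTR of Bsn. The Ppfia2 cluster had 736 tags, the most of any cluster of the 43 genes, at chr10:106057275-106057794 (plus strand), with 2 NOVA1 clusters of up to 74 tags beneath it. In Rims2, whose product recruits vesicles and calcium channels, the highest cluster had 294 tags at chr15:39239087-39239505 (plus strand) and overlapped 2 NOVA1 clusters of up to 13 tags. These stretches show the 100 nt with the most YCAY in each.
Ppfia2, 736 NOVA2 tags: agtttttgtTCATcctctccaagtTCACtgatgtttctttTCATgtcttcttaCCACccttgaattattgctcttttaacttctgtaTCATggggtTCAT
Rims2, 294 NOVA2 tags: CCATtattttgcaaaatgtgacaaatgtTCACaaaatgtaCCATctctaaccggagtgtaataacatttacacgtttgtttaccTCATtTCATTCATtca
Each stretch holds 6 YCAY, and each cluster holds 13 in all. The motifs of the Ppfia2 stretch are spread out, and the last ones of the Rims2 stretch lie close together. The 2 highest presynaptic NOVA2 clusters without a NOVA1 partner were also in introns of Ppfia2, with 130 tags at chr10:106013902-106014272 and 102 tags at chr10:106312662-106312967.

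The 3 strongest NOVA1 clusters of the presynaptic genes lay in 3' UTRs. In Syt11 the cluster at chr3:88549652-88549956 (minus strand) had 120 NOVA1 tags, and the NOVA2 cluster there had 102. In Bsn the cluster at chr9:107998590-107998752 (minus strand) had 118 NOVA1 tags and 358 NOVA2 tags. In Snap25 the cluster at chr2:136607074-136607428 (plus strand) had 106 NOVA1 tags and overlapped 2 NOVA2 clusters, the higher with 167. The highest NOVA1 clusters without a NOVA2 partner lay in the 3' UTR of Erc1, with 20 tags at chr6:119523233-119523413 and 18 tags at chr6:119524030-119524199 (minus strand). The 30 nt with the most YCAY are given for each, because these are the 3' UTR positions of the highest NOVA1 counts with and without NOVA2.
Syt11: CCATCATctgactcagtgtctcgCCATcag
Bsn: TCATtcagcctctggggtcaaatcaattcc
Snap25: aactgtgacattCCACagagctactgCCAC
Erc1, 20 NOVA1 tags: actgCCATtgcactgtacatgTCATtCCAT
Erc1, 18 NOVA1 tags: TCATgcggCCACtactgTCACagTCACagc
Tag counts did not follow the number of motifs here. The Bsn cluster of 118 tags held 2 YCAY in 163 nt, and the Erc1 clusters of 20 and 18 tags held 6 in 181 nt and 7 in 170 nt.

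Bsn, Erc1, Erc2 and Pclo, scaffolds of the active zone, had NOVA1 clusters in 3' UTRs that NOVA2 did not share. All 7 NOVA1 clusters of Bsn were in its 3' UTR. The 4 without a NOVA2 partner had 15, 14, 11 and 15 tags, and the 3 with one had 118, 12 and 20. In Erc1 the 4 NOVA1 clusters of the 3' UTR had 20, 10, 18 and 13 tags, all without a partner, and the nearest NOVA2 cluster of the gene lay 34622 nt from the closest of them. In Erc2 the 2 NOVA1 clusters of the 3' UTR, with 13 tags each, had no partner. In Pclo the 4 NOVA1 clusters of the 3' UTR, with 16, 15, 10 and 13 tags, also had no partner, but NOVA2 clusters lay 20 to 707 nt from them. In Syn1, whose product tethers vesicles, all 4 NOVA1 clusters were in the 3' UTR, with 38, 15, 72 and 49 tags, and all overlapped NOVA2 clusters of 37 to 70 tags. Other vesicle genes had unshared NOVA1 clusters in their 3' UTRs, namely 3 of 6 in Syt1, 1 of 2 each in Syt11, Sv2a and Syn2, and the single one of Rab3a. Over all vesicle protein genes 61.1% (38.6 to 79.7) of the NOVA1 clusters in 3' UTRs were shared, beside 31.8% (16.4 to 52.7) over the active zone scaffold genes, and the intervals overlapped. For this class the share was 52.7% (39.8 to 65.3) over the 43 genes and 73.9% (72.5 to 75.3) over the whole NOVA1 list. The interval of the vesicle protein genes held the value of the list, and that of the active zone scaffold genes lay below it.

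Intron clusters of NOVA1 were shared with NOVA2 more often than exon clusters. Of the 175 NOVA1 intron clusters 170 overlapped a NOVA2 cluster (97.1%, 93.5 to 98.8), and of the 69 NOVA1 exon clusters 36 did (52.2%, 40.6 to 63.5). Over the whole NOVA1 list the shares were 95.5% (94.8 to 96.1) and 67.3% (65.9 to 68.6). The difference between these genes and the list in exons, but not that between exons and introns, rested on 4 genes picked out after their values were seen. Shank1, Pclo, Bsn and Erc1 held 19 of the 33 unshared exon clusters, and without them 26 of 40 exon clusters overlapped (65.0%, 49.5 to 77.9). The unshared NOVA1 exon clusters had 10 to 25 tags. In all, 84.5% (79.4 to 88.5) of the NOVA1 clusters of these genes overlapped NOVA2, beside 80.1% of the list. By side the values were 89.2% (82.3 to 93.6) for postsynaptic and 80.0% (72.1 to 86.1) for presynaptic genes, and the intervals overlapped. With at least 20 tags in both lists the order turned, to 84% of 50 postsynaptic and 92.5% of 40 presynaptic clusters.

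In the other direction 206 of 1152 NOVA2 clusters overlapped a NOVA1 cluster (17.9%, 15.8 to 20.2), beside 22.1% of the list. The share was 16.0% (13.4 to 19) on the postsynaptic and 20.5% (17.1 to 24.3) on the presynaptic side. Within introns it was 15.5% (13.4 to 17.7), beside 14.1% (13.7 to 14.5) of all NOVA2 intron clusters, and within exons 68.6% (55.0 to 79.7), beside 63.0% (61.7 to 64.3). Within either class the genes were therefore not below the whole list.

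The overlap of a NOVA2 cluster rose with its tags. Of NOVA2 clusters with 10 to 19 tags in these genes, 3.48% (2.31 to 5.21) overlapped NOVA1. From 20 to 49 tags 16.9% (13.3 to 21.3) did, and at 50 or more tags 69.8% (62.8 to 76.0). Over the whole list the shares at these tag counts were 8.42%, 22.8% and 67.9%. For weak clusters the genes thus lay below the list, and for strong ones the interval held the value of the list. The classes differ too, since 96.2% of the clusters of 10 to 19 tags in these genes were intronic, beside 75.6% in the list. Shared NOVA2 clusters had a median of 62.5 tags and unshared ones 16. The NOVA1 list has 304703 tags and the NOVA2 list 1309270, and the part of this in the 946 unshared NOVA2 clusters was not tested.

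**Figure D4:**
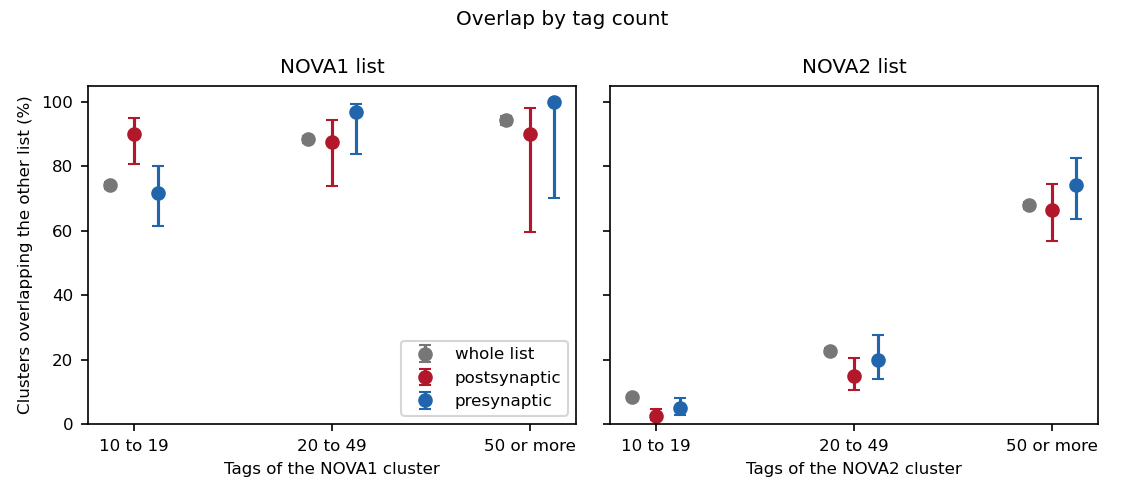
Share of clusters that overlapped the other list, in percent, by the tags of the cluster, for NOVA1 (left) and NOVA2 (right). Points are shares in the whole list, the postsynaptic and the presynaptic genes, with 95% Wilson intervals. For NOVA2 the share rises from 2.45% to 66.3% in postsynaptic and from 4.91% to 74.4% in presynaptic genes between 10 to 19 tags and 50 or more.

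In 16 of the 33 genes with clusters of both proteins the highest NOVA1 cluster overlapped the highest NOVA2 cluster. These were 7 of 15 postsynaptic and 9 of 18 presynaptic genes. The highest NOVA1 cluster lay in an exon in 11 of the 18 presynaptic genes and in 4 of the 15 postsynaptic genes. In 5 presynaptic genes (Cadps, Snap25, Syt1, Syn2 and Erc1) and in Shank1 NOVA1 was highest in an exon while NOVA2 was highest in an intron, and no gene showed the reverse. In Syt1, for example, NOVA1 reached 69 tags in the 3' UTR and NOVA2 reached 188 tags in an intron. Over the whole lists 48.1% of NOVA1 and 14.3% of NOVA2 clusters lay in exons, a difference in the same direction. The highest clusters were not compared in genes outside this set. Whether these counts are particular to the synaptic genes was therefore not tested.

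At positions where exactly 1 cluster of each list overlapped, NOVA2 tags mostly exceeded NOVA1 tags. On the log2 scale, NOVA1 over NOVA2 tags had a median of -1.89 (-2.16 to -1.74) over 178 pairs of these genes and -1.34 (-1.39 to -1.30) over 6770 pairs of the whole lists. Tags were not scaled to the depth of the libraries, so only differences in this ratio are compared. By class the genes and the lists did not differ beyond their intervals. In introns the median was -2.13 (-2.30 to -1.89, 151 pairs), beside -2.04 (-2.08 to -2.00) in the lists. In exons it was -0.32 (-0.85 to 0.30, 25 pairs), beside -0.38 (-0.42 to -0.33). NOVA1 tags exceeded NOVA2 tags in 10 of the 25 exon pairs and in 1 of the 151 intron pairs, beside 826 of 2532 exon pairs and 70 of 3452 intron pairs of the whole lists. The intron medians of the postsynaptic genes, -2.20 (-2.62 to -1.89, 85 pairs), and of the presynaptic genes, -1.99 (-2.32 to -1.77, 66 pairs), had overlapping intervals. The single intron pair with more NOVA1 tags was in Rims2, at a log2 ratio of 0.45.

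**Figure D5:**
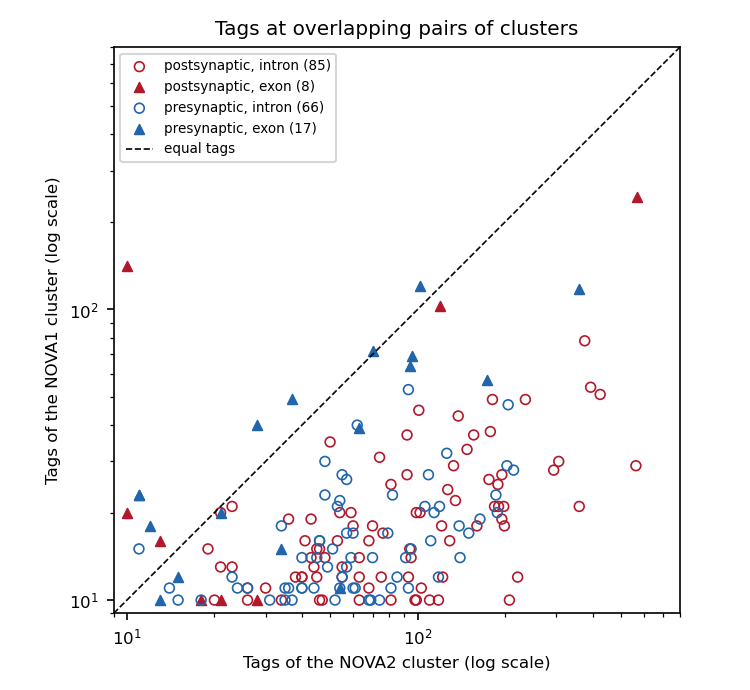
Tags of the NOVA1 cluster against tags of the NOVA2 cluster (both on log scales) at pairs that overlap one to one in the 43 genes, with 151 intron pairs as open circles and 25 exon pairs as filled triangles (2 pairs of mixed or other class not drawn), red for postsynaptic and blue for presynaptic genes. The dashed line marks equal tags. 1 intron pair and 10 exon pairs lie above it.

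Clusters of both proteins were rich in YCAY. NOVA2 clusters of the 43 genes held 42.9 YCAY per 1000 start positions and their flanks, 200 to 500 nt away, held 19.3, a fold of 2.23 (2.16 to 2.30). NOVA1 clusters held 41.8 beside 19.3, a fold of 2.17 (2.04 to 2.31). The folds of the whole lists were 2.29 for NOVA2 and 2.02 for NOVA1. Postsynaptic and presynaptic genes had folds with overlapping intervals, at 2.20 (2.11 to 2.28) and 2.28 (2.17 to 2.39) for NOVA2 and 2.20 (2.02 to 2.39) and 2.13 (1.94 to 2.33) for NOVA1. Intron clusters were richer than exon clusters. NOVA1 intron clusters reached 2.66 (2.47 to 2.86) and exon clusters 1.46 (1.29 to 1.65), and for NOVA2 the values were 2.26 (2.19 to 2.33) and 1.74 (1.505 to 2.01). NOVA1 clusters without a NOVA2 partner, 38 in all and 33 of them in exons, had a fold of 1.18 (0.98 to 1.43), and the 207 with a partner had 2.38 (2.22 to 2.54). In the whole NOVA1 list these values were 1.39 and 2.18. NOVA2 clusters differed less by partner, at 2.16 (2.09 to 2.24) without and 2.47 (2.32 to 2.63) with a NOVA1 cluster.

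Few intron clusters lay near exons. Within 500 nt of an exon of a protein-coding transcript lay 64 of 1100 NOVA2 intron clusters of these genes (5.82%, 4.58 to 7.36), beside 9.76% of all NOVA2 intron clusters. Of the 64, 27 were upstream, 26 downstream and 11 touched the exon. The presynaptic genes had 45 of 444 near exons (10.1%, 7.66 to 13.3) and the postsynaptic genes 19 of 656 (2.90%, 1.86 to 4.48). Of the intron sequence itself, 7.33% of the presynaptic and 4.08% of the postsynaptic lies that close to an exon. Without Dlg2 and Magi2 the postsynaptic share was 6.69% (4.27 to 10.3) of 269 clusters, with 5.76% of the sequence. NOVA1 had 13 of 175 intron clusters near exons (7.43%, 4.39 to 12.3), beside 11.7% of all NOVA1 intron clusters. For 29 of the 64 NOVA2 clusters the exon was one that another annotated transcript of the gene skips, 21 in presynaptic and 8 in postsynaptic genes. Over the whole list this held for 556 of 2665. The 29 were 2.64% (1.84 to 3.76) of the NOVA2 intron clusters of these genes, and the interval held the 2.04% of the whole list. By side the shares were 4.73% (3.11 to 7.12) in presynaptic genes, above the list, and 1.22% (0.62 to 2.39) in postsynaptic genes, with an interval that held it. Of the 21 presynaptic clusters 7 lay in Rims1 and 4 in Snap25, some of them at the same exon. The presynaptic share without Rims1 and Snap25 was not computed, so it is not known to hold across the presynaptic genes.

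The highest of the NOVA2 clusters near skipped exons lay at the alternative exons of Snap25. SNAP-25 is the SNARE protein that joins syntaxin on the plasma membrane, and its gene carries a pair of mutually exclusive exons, of which each transcript uses either. In vM1 they are at chr2:136595479-136595596 and chr2:136595793-136595910, each of 118 nt, and 1 annotated transcript uses each. NOVA2 had 4 clusters around them. Of these, that with 82 tags ended 211 nt upstream of the first exon, that with 205 tags reached over its 5′ edge, that with 69 tags reached over the 5′ edge of the second exon, and that with 20 tags began 48 nt downstream of the second. NOVA1 had 2, with 23 and 47 tags, at the positions of the first pair, and none at the other positions. The stretches of the first pair, at chr2:136595141-136595240 and chr2:136595401-136595500 (plus strand), show the motif on the approach to the first exon.
Snap25, 82 NOVA2 tags: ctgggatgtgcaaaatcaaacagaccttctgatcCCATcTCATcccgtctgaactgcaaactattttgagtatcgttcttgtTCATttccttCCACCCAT
Snap25, 205 NOVA2 tags: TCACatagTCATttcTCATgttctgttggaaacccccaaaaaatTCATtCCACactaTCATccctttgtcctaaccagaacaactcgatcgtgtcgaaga
The first holds 5 YCAY and the second 6, all 6 of them before the exon begins.

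In Rims1 an exon of 72 nt at chr1:22394525-22394596 (minus strand) is kept by 3 annotated transcripts and skipped by 3. NOVA2 had a cluster of 78 tags that ended 85 nt upstream of it, with no NOVA1 partner, a cluster of 25 tags over its upstream edge and one of 12 tags 333 nt upstream. NOVA1 had a cluster of 11 tags over the same edge. In Dlg3, which encodes the MAGUK protein SAP102, an exon of 100 nt on chromosome X at chrX:98003392-98003491 (plus strand) is present in 1 transcript and skipped by 3. NOVA2 clusters of 55 and 14 tags lay 62 and 182 nt upstream of it, one of 10 tags over its upstream edge and one of 121 tags 635 nt downstream, and NOVA1 clusters of 20 and 18 tags lay 126 and 651 nt downstream.
Rims1, 78 NOVA2 tags: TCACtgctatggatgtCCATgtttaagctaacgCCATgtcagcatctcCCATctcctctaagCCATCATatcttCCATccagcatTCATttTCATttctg
Dlg3, 55 NOVA2 tags: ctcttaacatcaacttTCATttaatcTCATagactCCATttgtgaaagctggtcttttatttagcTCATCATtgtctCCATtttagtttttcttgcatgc
The Rims1 stretch at chr1:22394770-22394869 holds 9 YCAY, and the Dlg3 stretch at chrX:98003220-98003319 holds 6. The remaining clusters of this kind among the 3 highest of each side had 34 NOVA2 tags in Shank3, 43 nt downstream of an exon of 2257 nt, and 24 tags in Gphn, over an exon of 108 nt. Whether any of these exons changes when NOVA is lost cannot be read from clusters.

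A second list of 42 synaptic genes outside the 43 was counted in the same way. NOVA2 had clusters in 28 of them and NOVA1 in 24, beside 22.7% and 12.7% of all protein-coding genes. Of their NOVA1 clusters, 23 of 27 were intronic in the 12 postsynaptic genes (85.2%, 67.5 to 94.1) and 16 of 68 in the 30 presynaptic genes (23.5%, 15.0 to 34.9). Over the whole NOVA1 list the share was 40.3%. The presynaptic share thus lay below the list here, whereas in the 43 genes it lay above, at 59.2%. Of the 27, 17 lay in Lrrc7, which encodes the scaffold densin and also held 94 NOVA2 clusters. All clusters of Lrrc7 were in introns, so the postsynaptic share rests largely on this gene. The other genes with at least 5 clusters of each protein were Rab3c (10 NOVA1 and 22 NOVA2 clusters), Syt7 (9 and 7) and Apba1 (5 and 14).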

How the data were processed

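NOVA1 and NOVA2 HITS-CLIP was analysed from 6 libraries of wild-type CD1 mouse cortex at embryonic day 18.5. The authors aligned reads to mm9 with Novoalign (version not given in the sources used here), removed PCR duplicates, formed clusters present in at least 2 of 3 libraries and deposited those with 10 or more tags. The deposited tag count per cluster is pooled over 3 libraries and not scaled to depth. The authors call the minimum of 10 tags a peak height, but whether the deposited count is a sum or a height is not given. Sums of tags may therefore be sums of heights. Depth cannot be read from the lists.

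The genes and lists were chosen with earlier results of these data known. Spans and classes are those of GENCODE vM1 on NCBIM37 (mm9). A cluster took the class covering most of it on its strand, with precedence to CDS, 3' UTR, 5' UTR, noncoding exon and then intron. Overlap meant 1 nt or more on the same strand. Skipped exons were internal exons lying within an intron of another protein-coding transcript of the gene. Further genome places were BLAST+ 2.17.0 matches of at least 90% identity over at least 50% of a cluster. The clusters to be shown were the 3 of highest tag count and the 2 highest without overlap per side and list, and the 3 highest near skipped exons per side. Genes named outside these are counts for all 43 genes, the 5 per side with most NOVA2 clusters, and genes of the second list with at least 5 clusters in both lists. Alternatives changed the tag minimum, list length, overlap, class rule, flanks, distance to exons, and left out single genes. No test was run, because counts are pooled. Python 3.11.15, NumPy 2.4.6, SciPy 1.17.1 and pysam 0.24.0 were used, and the functions were tested on simulated data.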

Additional observations from a re-analysis of the deposited data

How the results depend on the processing

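No paired analysis was possible because each list merges its 3 libraries, and no library could be left out. Numbers of clusters depend on the threshold. With at least 20 tags in both lists the postsynaptic genes held 50 NOVA1 and 306 NOVA2 clusters and the presynaptic genes 40 and 213. With at least 25 tags for NOVA2 the NOVA2 numbers were 235 and 174, and with only as many top NOVA2 clusters as NOVA1 has they were 176 and 139 (the reduced list). Overlap moved with the same choices. At 25 NOVA2 tags 78.3% of postsynaptic and 69.6% of presynaptic NOVA1 clusters overlapped NOVA2, and 39.1% and 47.1% of NOVA2 clusters overlapped NOVA1. With the reduced list the values were 75%, 66.4%, 49.4% and 56.1%. At 20 tags in both lists 84% of postsynaptic and 92.5% of presynaptic NOVA1 clusters overlapped, which turned the order of the sides, and the presynaptic median log2 tag ratio was -1.30. Without Dlg2 the overlap of postsynaptic NOVA2 clusters was 19.7%, and 19.7% without Magi2 too. Intron shares moved to 88.5% for presynaptic NOVA2 clusters in the reduced list. In alternatives chosen after seeing the data they were 76.1% (NOVA1) and 94.7% (NOVA2) for postsynaptic clusters without Dlg2 and Magi2, and 91.3% for NOVA1 without Shank1. With flanks 500 to 1000 nt away the postsynaptic YCAY folds were 2.56 for NOVA1 and 2.37 for NOVA2. Within 200 nt of an exon, 0.61% of postsynaptic NOVA2 intron clusters were downstream, and 2.25% of presynaptic ones were downstream and 2.03% upstream. Within 1000 nt 7.21% of presynaptic ones were upstream. Of 94 alternative values 64 moved by less than the 95% interval, or 1.5 times for a count. Of all of them 0 changed sign, which only the log2 tag ratios could have done. Depth per library is not known from the lists.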
